A study of Canis lupus familiaris with 7 samples.

Results

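Erythroid regulators and red cell membrane genes were followed across canine osteosarcoma (OSA) tumor and bone without visible tumor. A list of 8 genes named for their roles in red cell formation (*GATA1*, *KLF1*, *EPOR*, *ALAS2*, *AHSP*, *SLC4A1*, *EPB42* and *ANK1*) was matched by symbol to an expression table of 24580 genes. A match was found for 7 of the 8, and all 7 passed the filter for testing, while *GATA1* was not analysed here. *FECH* and *ALAD*, enzymes of heme synthesis in every cell type, were read beside them as context.

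The RNAseq compared 4 samples of grossly non-malignant bone (N1, N3, N8 and N9), cut next to the tumor, with 3 samples of OSA (T1, T3 and T10) diagnosed by histopathology. All came from dogs under veterinary care, after amputation or euthanasia, with no experimental treatment named, and the labels used here give no breed, sex or age for a sample. Each was a piece of whole tissue, so bone, marrow, muscle and blood could enter the same library. The labels do not say whether samples of 1 group came from different dogs, so p-values measure the spread between these samples. The paper describes its non-tumor tissue as matched. N1 and T1 share a number, as do N3 and T3, but the labels do not tie the number to a dog. The main tests used no pairing and treated all 7 samples as independent, and fits with the number as a block are given at the end.

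Red cells form in the marrow from erythroid precursors. The hormone erythropoietin acts through its receptor, the product of *EPOR*, and the transcription factors encoded by *GATA1* and *KLF1* switch on the genes of the maturing cell. *ALAS2* makes the erythroid form of the first enzyme of heme synthesis, and *AHSP* a chaperone that binds free alpha globin. The membrane of the red cell is tied to its spectrin skeleton through the anion exchanger band 3 (*SLC4A1*), protein 4.2 (*EPB42*) and ankyrin (*ANK1*). Some members are not restricted to red cell precursors: a short ankyrin made from *ANK1* occurs in skeletal muscle, and a form of band 3 in kidney.

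Values are FPKM, fragments scaled to transcript length and to the mapped fragments of the library. Low FPKM came in steps of whole fragments. By these steps, 1 FPKM stood for 0.546 (N8) to 1.44 (T10) times as many fragments as in N1, so N8 and N9 (0.660) had the coarsest low values. N1 stood apart from the other non-tumor samples. Over the 13507 genes tested, its median absolute log2 difference was 0.306 from T1, against 0.751 to 0.950 from N3, N8 and N9, and the smallest difference among all other pairs of samples was 0.592 (N3 and N8). Muscle markers were high in N8 and N9, and the osteoblast markers of N1 lay in the range of the tumors, as given with the marker lists further on. Results are therefore given with and without N1.

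The erythroid genes were high in N3 and N8, lower in N9, and near or under 1 FPKM for most members in N1 and all 3 tumors. N3 and N8 were the highest pair in 7 of 7 members, N8 being highest in 6 and N3 in *ANK1*. Among non-tumor samples N1 came last in 7 of 7, and it lay within the range of the tumors in 5. N3, N8 and N9 all exceeded every tumor sample in 6 of the 7 members, *ALAS2* being the exception. In bulk tissue, fewer cells of a type and less RNA per cell cannot be told apart.

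**Figure D1:**
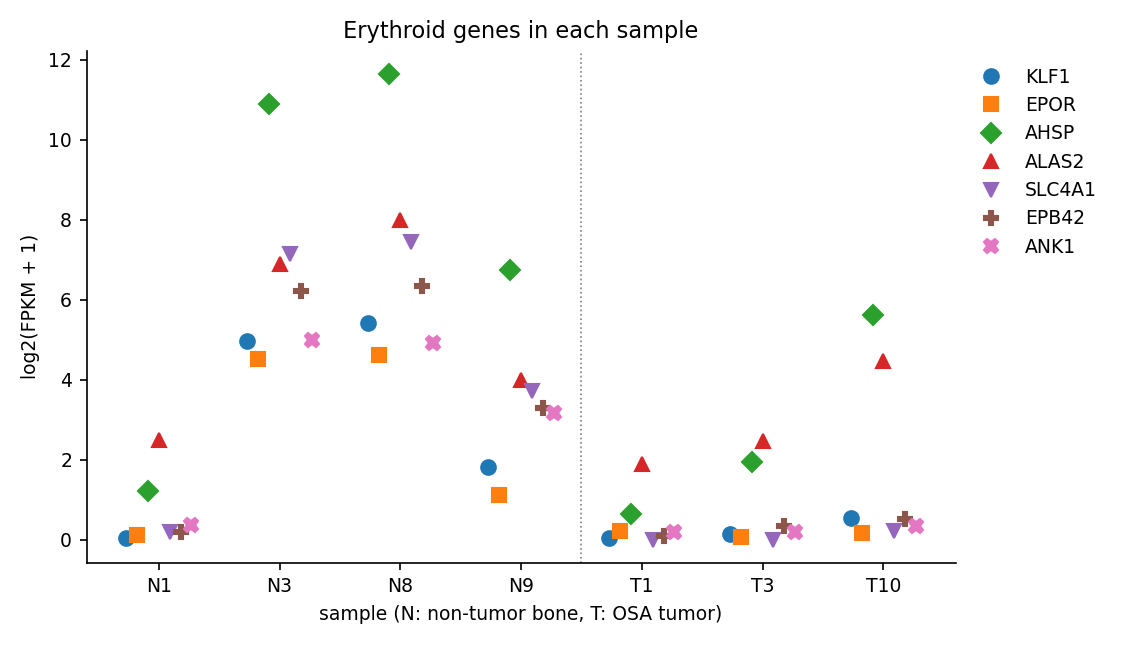
Level of the 7 erythroid genes in each sample as log2(FPKM + 1), 1 marker per gene, with non-tumor samples left and OSA tumors right of the dotted line. N3 and N8 carry the highest values, N9 lies between, and N1 and the tumors lie low except for *AHSP* (48.0 FPKM) and *ALAS2* (21.0 FPKM) in T10.

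Of the regulators, *KLF1* (ENSCAFG00000017111, CanFam3.1 chromosome 20 from 49295126 to 49298905), which activates the adult beta globin gene, reached 41.4 FPKM in N8 and 30.3 in N3, with 2.51 in N9 and 0.0340 in N1. The tumors had 0.0363 (T1), 0.110 (T3) and 0.450 (T10). N1 was below all 3 tumors in this gene. Its values under 0.5 FPKM corresponded, at the least, to 19 fragments in T10, 4 in T3 and 1 each in T1 and N1, so N1 and T1 were at the limit of detection and T10 was not. *KLF1* was lower in OSA tumor, with a log2 fold change of FPKM + 1 of -2.81 (95% interval -5.50 to -0.13, unadjusted p = 0.0419 from limma). This call was lost without N3 (-2.18), N8 (-2.03), T1 (-2.72), T3 (-2.77) or T10 (-2.96), and without N1 the log2 fold change was -3.82. It was also lost with no filter (unadjusted p = 0.0659 from limma) and with 0.01 in place of 1 added to each FPKM (unadjusted p = 0.0645 from limma). With the sample number as a fixed block the value was -2.41 and did not pass.

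*EPOR* (ENSCAFG00000017411) shares its interval on chromosome 20 (49944552 to 49953155) with *SWSAP1*. N8 had 23.5 FPKM, N3 22.0, N9 1.16 and N1 0.0733. The tumors had 0.156 (T1), 0.0394 (T3) and 0.119 (T10). The low values stood for at least 3 fragments in N1, 6 in T1, 2 in T3 and 7 in T10, and N1 fell between the tumors. The log2 fold change was -2.44 (95% interval -4.91 to 0.02, unadjusted p = 0.0519 from limma) and did not pass with all samples. It passed without N1 (-3.27) and without N9 (-2.94), the non-tumor samples with the lowest values.

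The genes that serve hemoglobin had the highest mean FPKM of the members. *AHSP* (ENSCAFG00000016939, chromosome 6 from 16744861 to 16745867) reached 3202 FPKM in N8 and 1915 in N3, with 106 in N9 and 1.31 in N1. T10 had 48.0, T3 2.84 and T1 0.560. T10 exceeded N1 and the other tumors, and was below N9. The log2 fold change was -4.89 (95% interval -10.06 to 0.28, unadjusted p = 0.0610 from limma), with a spread of 4.79 (SD, n = 4) in non-tumor samples on the log2 scale. It passed without N1 (-7.03) and without T10 (-6.33).

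*ALAS2* (ENSCAFG00000014308, chromosome X, 46693191 to 46723631, shared with *APEX2*) had 254.5 FPKM in N8, 118 in N3, 14.8 in N9 and 4.61 in N1. T1 was at 2.69, T3 at 4.48 and T10 at 21.0, above N9. This was the only one of the 7 members in which a tumor exceeded N9, and the only one that stayed above 1 FPKM in all 7 samples. The log2 fold change was -2.41 (95% interval -5.25 to 0.43, unadjusted p = 0.0876 from limma). Without N1 it was -3.36 and passed, and without N8 it was -1.52, which moved it by more than a factor of 1.5.

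Of the membrane genes, *SLC4A1* (ENSCAFG00000014228, chromosome 9 from 19146480 to 19157915) reached 174 FPKM in N8, 139.5 in N3 and 12.2 in N9. It was at 0.149 in N1 and 0.162 in T10, and listed at 0 in T1 and T3, where a 0 can be a failed estimate. T10 and N1 were thus at one level. *SLC4A1* was lower in OSA tumor by a log2 fold change of -4.56 (95% interval -7.99 to -1.12, unadjusted p = 0.0147 from limma), a value that depends on the 1 added to each FPKM. It passed in each of the 7 fits that left out 1 sample, from -6.03 without N1 to -3.61 without N8.

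*EPB42* (ENSCAFG00000011974, chromosome 30, 10053798 to 10122530, shared with *CCNDBP1* and *TGM5*) had 79.9 FPKM in N8, 73.9 in N3 and 8.76 in N9. N1 had 0.144, T1 0.0613, T3 0.255 and T10 0.419, or at least 5, 2, 11 and 21 fragments. N1 again lay among the tumors. The gene was lower in OSA tumor (log2 fold change -3.70, 95% interval -6.69 to -0.72, unadjusted p = 0.0203 from limma), but not past the threshold without N8 (-2.93), T1 (-3.59) or T3 (-3.72). Without N1 the value was -4.98, and with the sample number as a fixed block it was -3.00 and did not pass.

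*ANK1* (ENSCAFG00000005691, chromosome 16, 23857660 to 23972711, shared with *NKX6-3* and a gene without a symbol) had 30.7 FPKM in N3, 29.4 in N8, 7.97 in N9 and 0.295 in N1. T10 had 0.264, T3 0.141 and T1 0.140. The groups did not overlap, though by a narrow margin between T10 and N1 (two-sided exact permutation test over 35 splits, p = 0.0571). All tumors were lower than all non-tumor samples in 1 of the 7 members, and in 2.81% of all genes tested. The log2 fold change was -3.12 (95% interval -5.44 to -0.81, unadjusted p = 0.0135 from limma), and the gene passed in 7 of 7 fits without 1 sample, from -4.12 without N1 to -2.58 without N3. With the sample number as a fixed block (N1, N3, T1 and T3) it was -2.49 and did not pass.

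Together, 4 of the 7 members (57.1%) were lower in OSA tumor at a fold change of 2 and an unadjusted p under 0.05, and 0 were higher. Among all genes tested, 3.58% were lower by the same rule. These 4 passed the filter of 1 FPKM only through the non-tumor samples, with tumor means from 0.0540 (*SLC4A1*) to 0.245 FPKM (*EPB42*). With no filter 3 members were lower, *KLF1* losing its call, among 347 of 18759 genes. After scaling every sample to one FPKM total, 6 of the 7 members were lower, *EPOR* and *AHSP* joining the 4 named first. Of the calls in both directions over all genes, 52.2% were lower as deposited (483 lower, 443 higher) and 64.5% after that scaling (493 lower, 271 higher). The median log2 fold change was -3.12 over the 7 members and -0.02 over all genes tested. It depended on the 1 added to each FPKM, being -4.73 with 0.1 and -5.22 with 0.01, and all 7 values were negative under every scaling tried. An adjusted p under 0.05 was reached by 0 members and by 0 of all genes in limma (adjusted p = 0.693 for each member), where 927 genes had an unadjusted p under 0.05. The two-sided exact permutation test on each of the 7 members gave p from 0.0571 (*ANK1*) to 0.257 (*KLF1*), where the smallest p these splits allow is 0.0286.

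N1 decided several of these calls. Without it, 7 of the 7 members were lower in OSA tumor, where 8.67% of all genes were, and the members' median log2 fold change was -4.12. The count was 2 without N8 (1.18% of all genes lower), 2 without T1 (4.57%) and 2 without T3 (1.59%). In *FECH* and *ALAD* the log2 fold change went from -2.56 to -3.68 and from -2.31 to -3.14 without N1, and both passed with and without it. *FECH* lost its call without any other single sample, and *ALAD* without N3, N8, T1, T3 or T10. Neither call held with no filter or after quantile normalization.

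**Figure D2:**
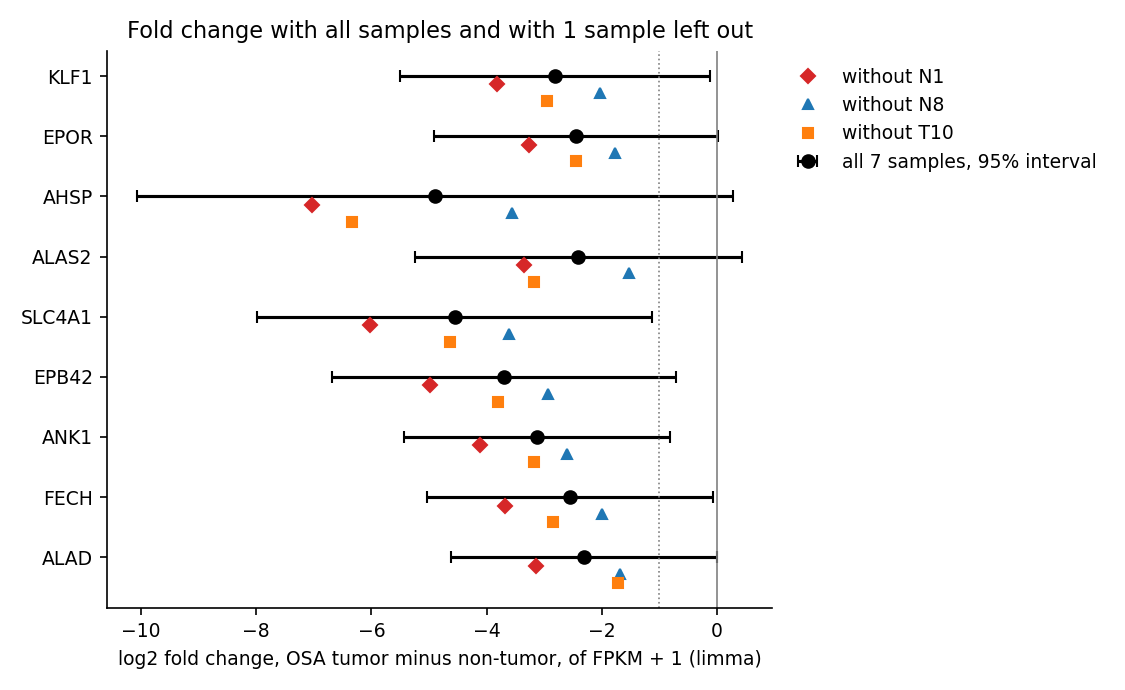
Log2 fold change (OSA tumor minus non-tumor, of FPKM + 1, limma) of the 7 erythroid genes and of *FECH* and *ALAD*: black points with 95% intervals use all 7 samples, coloured points leave out 1 sample, and the dotted line marks a fold change of 2. Without N1 each gene lies further left than with all samples (*AHSP* at -7.03, *SLC4A1* at -6.03), and without N8 each lies further right.

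The members did not keep one ratio across the samples. With each FPKM taken as a percent of the same gene's value in N8, N3 ranged from 46.2% (*ALAS2*) to 105% (*ANK1*). N9 was at 3.31% for *AHSP*, 4.92% for *EPOR*, 5.81% for *ALAS2*, 6.07% for *KLF1* and 7.01% for *SLC4A1*, and higher for *EPB42* (10.97%) and *ANK1* (27.2%). Of the context genes, *FECH* kept 37.0% of its N8 level in N9, more than any of the 7 members, and *ALAD* 15.4%, less than *ANK1*. In N1 the members were at 0.0408% (*AHSP*) to 1.81% (*ALAS2*) of N8, against 2.64% for *FECH* and 3.87% for *ALAD*. *ALAS2* and *ANK1* were thus the members with the smallest drop from N8 to N1, both at over 1%.

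T10 differed from the other tumors in part of the genes. It was the highest tumor in 6 of the 7 members, *EPOR* being the exception, yet the excess was unequal: *AHSP* was 16.9 times, *ALAS2* 4.68 times and *KLF1* 4.09 times the next tumor, *EPB42* 1.64 times and *ANK1* 1.88 times. Set against N9, T10 had 142% of the *ALAS2* level and 45.3% of the *AHSP* level, but 3.31% of *ANK1* and 1.33% of *SLC4A1*. The alpha globin gene *HBA* was at 361 FPKM in T10, 184 in T3, 2.67 in T1 and 31.8 in N1, against 299 in N9, and its reads may be shared between copies of the gene. These contrasts between single samples were chosen after their values were seen and have no replicate check.

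The ratio of *ALAS2* to *AHSP*, compared per length in FPKM and also chosen after seeing the values, differed between samples. *ALAS2* was at 0.0614 times *AHSP* in N3, 0.0795 in N8 and 0.140 in N9. It was at 0.437 times in T10 and at 1.58 in T3, 3.53 in N1 and 4.80 in T1. The samples with the least *AHSP* (T1 and N1) had the highest ratio, and *AHSP* itself enters the ratio.

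**Figure D3:**
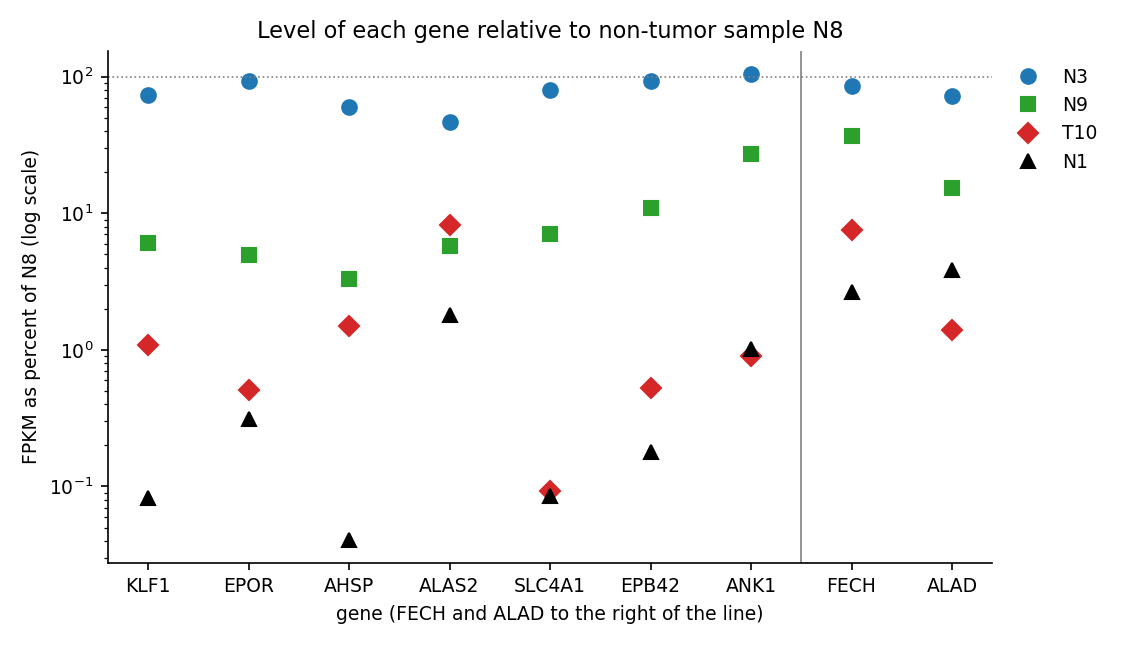
FPKM of each gene as a percent of its value in non-tumor sample N8 (log scale) in N3, N9, T10 and N1. N9 spreads from 3.31% (*AHSP*) to 27.2% (*ANK1*) among the members, and T10 exceeds N9 in *ALAS2* alone.

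Other genes of the erythroid program were read from 4 lists. Of 10 erythroid markers that are not among the members (among them *TAL1*, *GFI1B*, *NFE2*, *SPTB*, *RHAG*, *HBM*, *HEMGN* and *TMOD1*), N3 and N8 were the highest pair in 8, the exceptions being *SPTB* and *TMOD1*, and 7 of 10 were lower in OSA tumor. This count was 10 without N1, 4 without N3 and 3 without N8, T1 or T3. Of all genes tested, 3.58% were lower with all samples, 8.67% without N1, 1.18% without N8, 4.57% without T1 and 1.59% without T3. The same shares stand beside the counts of the lists that follow, so part of a rise without N1 is shared by all genes. Both exceptions were highest in N9, with 75.5 FPKM of *SPTB* (beta spectrin) and 261 FPKM of *TMOD1* (tropomodulin, which caps actin filaments), 2 genes that striated muscle also expresses.

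Among 22 genes of the red cell membrane and skeleton tested, 8 were lower and 0 higher in OSA tumor, with a median log2 fold change of -2.03. *RHAG*, which encodes the Rh-associated glycoprotein, was at 110 FPKM in N3 (log2 fold change -4.06), and *DMTN*, for the actin-bundling dematin, at 85.5 (-3.01). *KEL* (-2.67), *XK* (-2.34), *SPTB* (-4.04) and *TMOD1* (-4.09) were also lower. Of the genes with the highest mean FPKM in the list, *CD47* (0.11), *AQP1* (-1.39) and *GYPC* (-2.37) did not pass. The count was 16 without N1, 11 without N9, 4 without N3, 3 without N8, 2 without T1 and 4 without T3; *SPTB* and *TMOD1* passed in 7 of 7 of these fits.

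Of 14 transcription and cytokine signalling genes tested, 3 were lower and 0 higher. *TAL1*, a partner of *GATA1* in erythroid transcription, had 22.8 FPKM in N8, 18.1 in N3, 4.37 in N1 and 2.42 in N9, while T1 had 2.67, T10 2.36 and T3 0.170, a log2 fold change of -1.97. The other two were the ubiquitin ligase gene *TRIM58* (-2.12) and *STAT5B* (-1.24), a signal transducer below the erythropoietin receptor that was highest in N9 at 32.6 FPKM. *JAK2*, the kinase bound to that receptor, was at 0.01, and *LMO2* and *LDB1*, which bridge the erythroid factors, at -0.78 and -0.81 without passing. The ligand gene *EPO* was below the filter, at most 0.513 FPKM (T3). The count was 5 without N1, 1 without N3 or T10, and 0 without N8 or T3.

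Of 19 globins and soluble red cell proteins listed, 11 were matched and tested. The symbols without a match were all globins, *HBB* among them, so *HBA* and *HBM* were the only globins read. In OSA tumor, 3 of the 11 were lower and 0 higher. These were the carbonic anhydrase genes *CA1* (-4.99), at 349 FPKM in N3 and listed at 0 in N1 and T1, and *CA2* (-2.38), and the erythroid nuclear factor gene *HEMGN* (-3.31). *HBA* did not pass (-3.96, unadjusted p = 0.108 from limma), ranging from 31.8 to 18010 FPKM within the non-tumor samples. The antioxidant enzyme genes *GPX1* (-0.80), *PRDX2* (-0.87) and *CAT* (-1.80) did not pass either. The count was 9 without N1, 1 without T1 or T10, and 0 without N3, N8 or T3. Among 10 genes of mitochondrial iron handling and heme export, 1 was lower, the iron importer *SLC25A37* (-2.60), which lost its call without T3, and 3 were lower without N1.

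Genes outside the list with the most similar profile were found by the root mean square difference between centred log2(FPKM + 1) values over the 7 samples, among 11844 tested genes with a symbol. Among the 10 nearest to the median profile of the members were *TRIM10* (0.384), *GLOD5* (0.442), *RETN* (0.461), *REEP6* (0.494), *FECH* (0.548), *CEBPE* (0.551), *HEMGN* (0.574), *DMTN* (0.578) and *FGR* (0.588). Not all of these are red cell genes, examples being *CEBPE*, a transcription factor of granulocyte maturation, and *FGR*, a kinase of myeloid cells. To single members other than *AHSP*, the nearest were *GLOD5* for *KLF1* (0.180), *YPEL4* for *EPOR* (0.170), *FGR* for *ALAS2* (0.434), *RH30* for *SLC4A1* (0.238), *RHAG* for *EPB42* (0.253) and *REEP6* for *ANK1* (0.362). Thus Rh-family genes were nearest to *SLC4A1* and *EPB42*.

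Markers of other marrow cells differed in how far they followed the erythroid genes. Of the neutrophil precursor markers, 4 of 8 were matched and 4 of 4 tested were lower in OSA tumor, with and without each single sample. Their summed level was 9532 FPKM in N3, 9079 in N8, 310 in N9 and 85.6 in N1, against 0.668 to 66.8 in the tumors. N1 kept more of these markers than T1 and T10, with the antimicrobial peptide gene *CAMP* at 43.7 FPKM against 0.188 and 0.125, whereas T3 was at 44.6. Megakaryocyte markers summed to 169 FPKM in N8, 98.8 in N3, 53.4 in N9 and 13.8 in N1, and to between 11.02 and 50.0 in the tumors, so N1 lay in the tumor range. By limma 0 of 5 tested passed the threshold (0 at an unadjusted p under 0.05), and 2 were lower without N1 or without N9 (*GP9* and *ITGA2B*). In T10 the platelet chemokine gene *PPBP* was at 25.4 FPKM, above N9 (4.91). Mast cell and eosinophil markers summed to 84.0 FPKM in N3, 60.5 in N8, 4.78 in N9 and 1.52 in N1, and 2 of 3 tested were lower (*CMA1* and *CPA3*), both calls being lost without N3, N8, T1, T3 or T10. Macrophage markers summed to 582 FPKM in N3, 568 in N8, 225 in N1 and 128 in N9, against 171 to 547 in the tumors. N3 and N8 were thus highest here too, with T1 (547, of which *CD68* gave 400) close to them. By limma 0 of 7 macrophage markers passed the threshold (0 at an unadjusted p under 0.05). The part of these cells in the result was not tested.

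Skeletal muscle markers had another order of samples, with a sum of 96670 FPKM in N8, 71140 in N9, 1583 in N3 and 102 in N1, against 9.66 to 31.5 in the tumors. Of 16 tested, 13 were lower in OSA tumor, and *CKM* and *MYH1* were listed at 0 in N9 although its other muscle markers were high. *ANK1* was at nearly the same level in N3 and N8, which differed widely in this sum, and kept a larger share of its N8 level in N9 than the other members. The part of muscle in the *ANK1* values was not tested. Osteoblast markers summed to 1539 FPKM in N1 and 1270 in N3, against 959 to 3600 in the tumors, and were lowest in N8 (115) and N9 (352). Cell cycle genes were lowest in N9, at 30.1 FPKM, and between 171 and 451 elsewhere, with 0 of 9 past the threshold by limma (0 at an unadjusted p under 0.05). N3 thus combined erythroid and bone signal, with a muscle sum (1583 FPKM) below N8 and N9 but above every tumor. N8 combined erythroid and muscle signal, and N1 had bone signal with little erythroid or muscle signal.

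**Figure D4:**
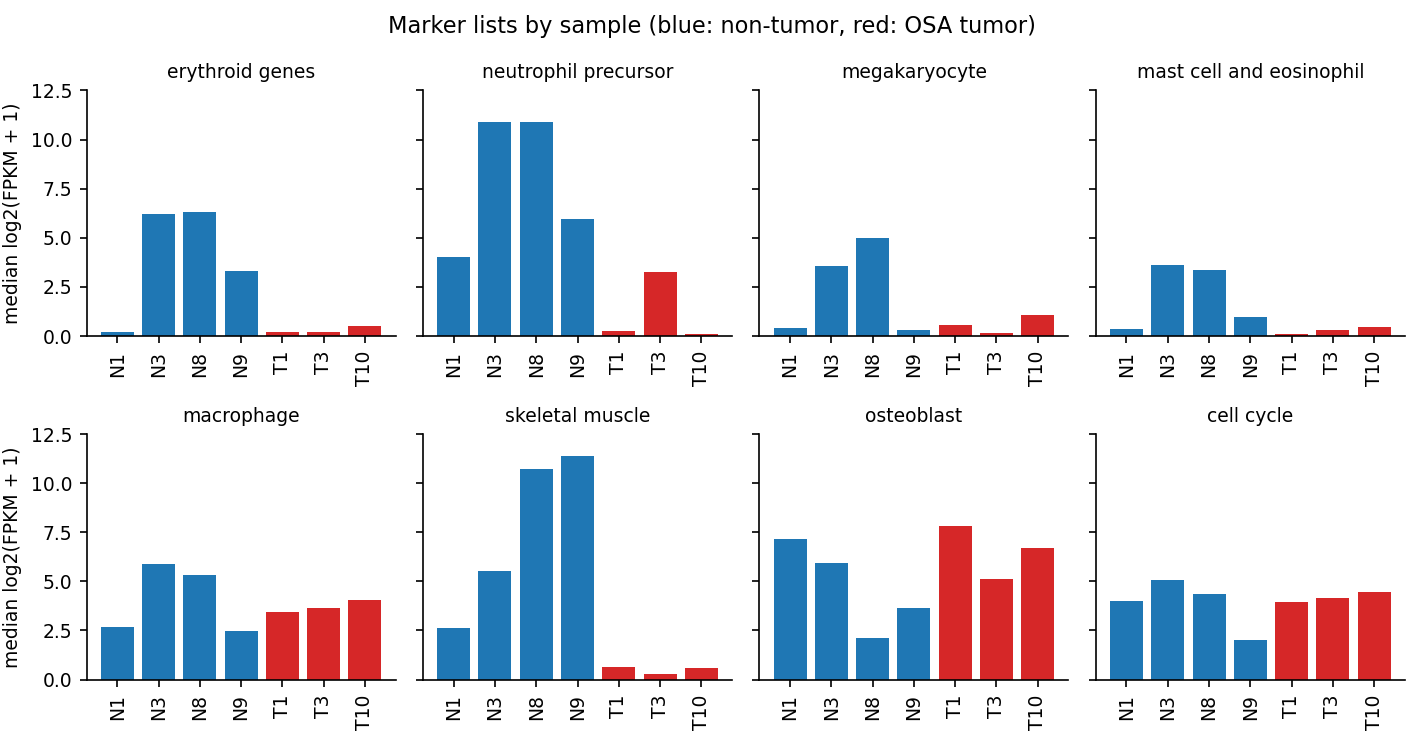
Median log2(FPKM + 1) of the 7 erythroid genes and of 7 marker lists in each sample, non-tumor in blue and OSA tumor in red. N3 and N8 are the highest samples for erythroid genes (6.23 and 6.34) and for neutrophil precursor, megakaryocyte, mast cell and eosinophil, and macrophage markers. Skeletal muscle markers are highest in N9 and N8 (11.4 and 10.7).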

How the data were processed

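Libraries were prepared with a stranded Illumina TruSeq kit for paired ends. After trimming (Trim Galore) and alignment with Tophat2 on the CanFam3.1 Ensembl iGenomes annotation, the authors deposited FPKM per gene and sample from Cufflinks/Cuffdiff; versions, strand setting and scaling between libraries are not given in the sources used here. Their second table, a group comparison with fold changes, p-values and q-values, was used only for the gene intervals, as other annotation the authors deposited, with 1 added to each start. All 7 sample columns were used and 0 were left out.

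The 7 samples were compared as 4 non-tumor against 3 OSA tumor on log2(FPKM + 1), keeping genes whose mean was 1 FPKM or more, with limma 3.58.1 in R 4.3.3 (empirical Bayes with trend). A gene was called at a 2-fold difference and unadjusted p under 0.05; adjusted p-values (Benjamini-Hochberg) cover all genes tested, and fits without a sample repeat the filter. On this scale the changes of low genes are understated. Exact permutation tests, distances and figures used Python 3.11.15, numpy 2.4.6 and matplotlib 3.10.9. Simulated data with known changes were used to test the fit. Depth is known relative to N1 alone, by the steps of low FPKM, and fragments were called whole within 0.15 of a fragment.

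The members and lists were chosen with earlier results of these data known. Besides the members, *FECH* and *ALAD*, the genes named were up to 4 per list with the highest mean FPKM, the called genes of the erythroid lists, and the nearest profiles (10 for the median, 1 per member); others were named after their values were seen, and a few that the rule names are not reported here. Alternatives covered pseudocount, filter, scaling, trend, sample weights, a block by sample number and each sample left out.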

Additional observations from a re-analysis of the deposited data

How the results depend on the processing

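All 126 alternative values of the 7 members (18 settings each) kept a negative log2 fold change; 95 stayed on their side of the threshold, 13 lost it and 18 gained it. *SLC4A1* passed in all 18 settings and *ANK1* in 17, failing only with the fixed block. The number of members past the threshold, 4, was 7 with sample weights and ran from 2 to 7 with 1 sample left out (7 without N1; 2 without N8, T1 or T3). Over all genes, 926 became 1857 with sample weights and 362 (without N8) to 2011 (without N1), with 449 without T10. Of these calls, 52.2% were lower as reported, 64.5% at the same sum per sample and 42.8% with quantile normalization, and from 34.2% (without T3; 34.97% without T10) to 64.5% (without N3) with 1 sample left out. The sample number was not stated to mark a dog. Over the tested genes, the deviations of same-numbered samples from their group means had a correlation of 0.422 for number 1 and 0.211 for number 3. Samples with different numbers were not compared in this way, so these values have no baseline. With the number as a random block 7 members passed, and with a fixed block, which left N1, N3, T1 and T3, 3 members and 407 genes passed: *SLC4A1* kept its call, *AHSP* and *ALAS2* gained one, and *KLF1*, *EPB42* and *ANK1* lost theirs. *FECH* lost its call with the fixed block and *ALAD* with both, with median ratio scaling and with no trend. Low values of *KLF1*, *EPOR* and *EPB42* rest on few fragments, and N8 had the fewest per FPKM. The cause of these changes was not tested.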
